A study of Mus musculus with 6 samples.

Results

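Hox genes encode homeodomain transcription factors that lie in 4 clusters, HoxA to HoxD, and are numbered by paralog group, from group 1 at the 3' end of a cluster to group 13 at the 5' end. During development the low-numbered genes are switched on first and furthest forward, and the high-numbered ones later and further back, so that the set of active Hox genes records the level of the body axis. Neurons, glia and connective tissue cells can keep such a code into adult life, and in the spinal nervous system it is best known for assigning motor neurons to limb or trunk levels. Every gene of the deposited table whose symbol is Hoxa, Hoxb, Hoxc or Hoxd followed by a number was taken, which gave 39 of 57180 genes, 11 in HoxA, 10 in HoxB, 9 in HoxC and 9 in HoxD. The choice rests on gene names and not on measured values.

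The libraries came from dorsal root ganglia, the sensory ganglia beside the spinal cord, dissected from thoracic level 8 to lumbar level 2 of wild-type (WT) mice 24 h after kidney surgery. In 3 renal ischemia-reperfusion (I/R) mice the left renal pedicle was clamped for 28 min and released, and the right kidney was removed. The 3 sham mice had the same operation without the clamp, and the labels do not state separately that their right kidney was taken out. Each mouse gave 1 library that pools ganglia of several levels, so no value belongs to a single ganglion. The question taken from the design text is how ganglia changed after renal I/R.

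Library totals ran from 19092650 to 22010227 expected counts, of which 0.0214% to 0.0264% fell on Hox genes. All 10 sensory neuron markers were abundant, with a summed level of 8798 to 9641 CPM (a count divided by its library's size) in I/R libraries and 8299 to 9401 CPM in sham libraries. The 5 sympathetic markers summed to 105 to 111 CPM in I/R libraries and 113 to 123 CPM in sham libraries. Nearly all of this was Th, which some sensory neurons also make, with Slc18a2 at 3.10 to 5.85 CPM, and Dbh and Hand2 lay between 0 and 0.150 CPM in every library. Skeletal muscle markers summed to 4.94 to 10.5 CPM in I/R libraries, against 480, 13.5 and 247 CPM in sham 1 to 3, so sham 1 and sham 3 stand apart. Summed fibroblast and meningeal markers were 350 to 414 CPM in I/R libraries and 689 to 834 CPM in sham libraries, and 7 of the 8 were called lower in I/R. Summed Schwann cell markers were 5488 to 6189 CPM in I/R and 6455 to 6781 CPM in sham, with 0 of 5 called. Summed macrophage markers were 33.5 to 39.1 CPM in I/R and 30.1 to 32.5 CPM in sham, with 0 of 5 called, and adipose markers averaged 1.01 ± 0.443 CPM in I/R and 2.36 ± 0.259 CPM in sham (SD, n = 3 each), with 1 of 4 called lower. Of 5 satellite glia markers 1, Fabp7, was called lower, and 4 had an unadjusted p under 0.05, 2 in each direction. In such bulk samples fewer cells of a type and less RNA per cell cannot be told apart.

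Because paralogs on different chromosomes descend from the same ancestral gene, their coding sequences are similar, most of all in the homeobox, which encodes the domain that binds DNA. Over the homeobox of 180 bases, located in GENCODE M21 transcripts of all 39 genes, identity was 67.2% to 93.9% within a paralog group (median 80.6%, 42 pairs) and 46.1% to 88.9% between groups (median 60.6%, 699 pairs). Between any 2 Hox mRNAs of different clusters, in 569 pairs, the longest run of identical bases was 52, for Hoxa6 and Hoxb4, and the median was 15. Read length is not given in the sources used here, so whether a read can span such a run is unknown.

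The transcripts detected ran from group 1 to group 11, with a steep drop after group 10 in HoxA and HoxC and after group 9 in HoxD. At 0 in every library were Hoxb1, Hoxc12, Hoxd12, Hoxa13, Hoxc13 and Hoxd13, and Hoxb13 had 1 count, in sham 2. A count of 3, the most that a count of 0 allows, was 0.137 to 0.154 CPM in a library, and for these 6 genes at most 0.149 CPM per kilobase. This floor covers counting error only. Levels are compared between genes as CPM per kilobase of the deposited gene length, which for 38 of the 39 genes is that of a GENCODE M21 transcript. Counts are per gene, and the exons of all transcripts of a gene can cover more bases than that length. Hoxb3, with a deposited length of 1890, has 2250 exonic bases in common with Hoxb3os alone. The order of genes, the ratios between them and the shares depend on this length, and no other length was tried. On this scale 24 genes had a mean of at least 1 and 9 a mean of at least 5, the median of the 29 tested Hox genes was 3.08, and the median of all 16346 tested genes was 6.03. The plot of levels by library shows this profile along each cluster.

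**Figure D1:**
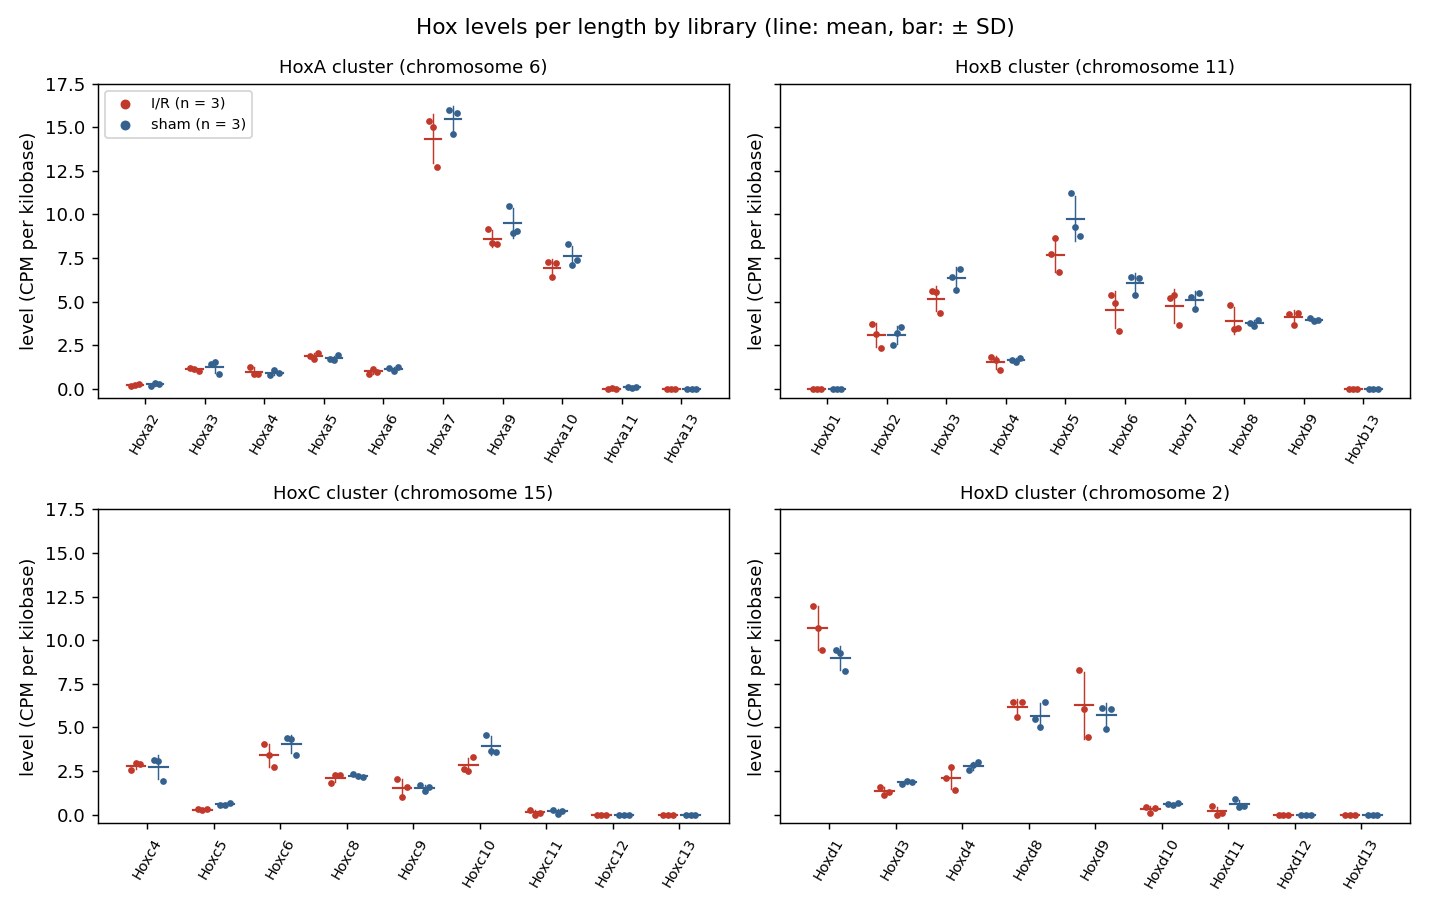
Level of 38 of the 39 Hox genes in CPM per kilobase (y axis), in 1 panel per cluster with genes in order of paralog group, for 3 I/R and 3 sham libraries (points) with the group mean (line) and SD (bar). HoxA peaks at Hoxa7, HoxB at Hoxb5 and HoxD at Hoxd1, and groups 12 and 13 lie at or near 0 in every cluster.

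In group 1, Hoxd1, which in mouse embryos marks nociceptors and shapes their connections, stood at 12.0, 10.7 and 9.42 CPM per kilobase in I/R 1 to 3, against 9.46, 9.28 and 8.22 in sham 1 to 3. It was the second most abundant Hox gene per length, 6.12 times Hoxd3, its neighbour in the cluster. I/R 3 lay just under sham 1, so the groups overlapped, and the log2 fold change was 0.25 ± 0.12 (SE) with a 95% interval of -0.03 to 0.53 (adjusted p = 0.53). Hoxb1, which marks a hindbrain segment, was at 0.

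In group 2 the level sat on Hoxb2, at 3.73, 3.15 and 2.35 CPM per kilobase in I/R 1 to 3, against 2.50, 3.22 and 3.53 in sham 1 to 3. Hoxa2, which patterns the second pharyngeal arch, was below the filter on low counts, with 5 to 13 counts a library. Of the group 3 genes Hoxb3 led, at 5.59, 5.58 and 4.36 CPM per kilobase in I/R 1 to 3, against 6.44, 5.66 and 6.90 in sham 1 to 3. Every I/R value of Hoxb3 lay under every sham value, with I/R 1 at 5.59 and sham 2 at 5.66 almost touching. Hoxd3 stood at 1.61, 1.14 and 1.32 CPM per kilobase in I/R 1 to 3, against 1.78, 1.94 and 1.85 in sham 1 to 3. Hoxa3, a gene of thymus and throat development, had 1.18, 1.16 and 1.04 CPM per kilobase in I/R 1 to 3, against 1.44, 1.56 and 0.832 in sham 1 to 3. The I/R values of Hoxd3 lay below all its sham values, while those of Hoxa3 fell inside its sham range.

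All 4 genes of group 4, which acts at hindbrain and neck levels, were detected. Hoxc4 had 2.56, 2.95 and 2.92 CPM per kilobase in I/R 1 to 3, against 3.12, 3.10 and 1.92 in sham 1 to 3. Hoxd4 had 2.11, 2.72 and 1.43 CPM per kilobase in I/R 1 to 3, against 2.56, 2.84 and 2.99 in sham 1 to 3, and Hoxb4 had 1.83, 1.66 and 1.08 CPM per kilobase in I/R 1 to 3, against 1.66, 1.56 and 1.78 in sham 1 to 3. For Hoxd4 and Hoxb4 the lowest of the 6 values was I/R 3, and for Hoxc4 it was sham 3, with overlap between the groups in all 3 genes. Hoxa4 was just under 1, at a mean of 0.993 CPM per kilobase in I/R and 0.933 in sham.

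Group 5 was dominated by Hoxb5, a gene that neural crest derivatives express, at 7.74, 8.65 and 6.69 CPM per kilobase in I/R 1 to 3, against 11.2, 9.25 and 8.78 in sham 1 to 3. The highest I/R value, 8.65, was just under the lowest sham value, 8.78. Hoxa5, known for its part in lung and neck development, stood at 1.87, 1.70 and 2.04 CPM per kilobase in I/R 1 to 3, against 1.70, 1.68 and 1.92 in sham 1 to 3, with overlap. Hoxc5 was low, at 0.304, 0.248 and 0.312 CPM per kilobase in I/R 1 to 3, against 0.554, 0.530 and 0.685 in sham 1 to 3, and its I/R values lay well clear of its sham values.

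Groups 6 to 10, the trunk and lumbar genes, together made up 62.7% to 65.3% of the summed Hox level in I/R libraries and 62.4% to 64.9% in sham libraries. In group 6, Hoxb6 stood at 5.38, 4.91 and 3.35 CPM per kilobase in I/R 1 to 3, against 6.42, 5.41 and 6.38 in sham 1 to 3. Hoxc6, which at the forelimb level helps to set motor neuron identity, had 4.03, 3.43 and 2.74 CPM per kilobase in I/R 1 to 3, against 4.37, 4.36 and 3.44 in sham 1 to 3. Hoxa6 had 0.847, 1.16 and 0.991 CPM per kilobase in I/R 1 to 3, against 1.18, 1.03 and 1.23 in sham 1 to 3. Hoxb6 had I/R values all below its sham values, narrowly at the closest pair, and the groups overlapped for Hoxc6 and Hoxa6.

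Hoxa7, a trunk patterning gene of group 7, was the most abundant Hox transcript per length, at 15.3, 15.0 and 12.7 CPM per kilobase in I/R 1 to 3, against 16.0, 14.6 and 15.8 in sham 1 to 3. It ranked above 70.6% of all tested genes and stood 13.9 times above Hoxa6, its neighbour in the cluster. Hoxb7 had 5.24, 5.40 and 3.64 CPM per kilobase in I/R 1 to 3, against 5.28, 4.57 and 5.49 in sham 1 to 3. For both genes I/R 3 was the lowest library and the groups overlapped.

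Group 8 was led by Hoxd8, at 6.45, 5.62 and 6.44 CPM per kilobase in I/R 1 to 3, against 5.51, 5.03 and 6.45 in sham 1 to 3. Hoxb8, loss of which makes mice groom to excess, stood at 4.81, 3.43 and 3.49 CPM per kilobase in I/R 1 to 3, against 3.76, 3.58 and 3.96 in sham 1 to 3. Hoxc8, a gene of lower neck and upper thoracic motor pools, had 1.82, 2.28 and 2.24 CPM per kilobase in I/R 1 to 3, against 2.34, 2.19 and 2.14 in sham 1 to 3. The groups overlapped for all 3 genes.

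All 4 paralogs of group 9, the group that marks thoracic levels, were detected. Hoxa9 had 9.17, 8.37 and 8.31 CPM per kilobase in I/R 1 to 3, against 10.5, 8.94 and 9.07 in sham 1 to 3. Hoxd9 had 8.30, 6.05 and 4.44 CPM per kilobase in I/R 1 to 3, against 6.13, 4.89 and 6.08 in sham 1 to 3, and Hoxb9 had 4.30, 3.65 and 4.37 CPM per kilobase in I/R 1 to 3, against 4.04, 3.88 and 3.95 in sham 1 to 3. The spread of Hoxd9 within I/R, from 4.44 to 8.30, covered its whole sham range. Hoxc9, which in thoracic motor neurons holds the limb program in check, was the lowest of the 4, at 2.02, 1.02 and 1.57 CPM per kilobase in I/R 1 to 3, against 1.69, 1.37 and 1.56 in sham 1 to 3, with I/R 2 the lowest and I/R 1 the highest library.

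In group 10, which suppresses ribs to give lumbar vertebrae, Hoxa10 stood at 7.26, 6.39 and 7.20 CPM per kilobase in I/R 1 to 3, against 8.30, 7.11 and 7.39 in sham 1 to 3. Hoxc10, a gene of lumbar motor neurons, had 2.64, 2.51 and 3.32 CPM per kilobase in I/R 1 to 3, against 4.57, 3.66 and 3.60 in sham 1 to 3. Every I/R value of Hoxc10 lay under every sham value, and the Hoxa10 groups overlapped. Hoxd10 was far lower than its paralogs, 15.8 times under Hoxa10, and its values are given with the posterior genes.

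The order of the levels was loose. Of the 24 neighbouring pairs led by a gene of at least 1 CPM per kilobase, 4 differed by more than the larger of their SDs over the 6 libraries, namely Hoxa7 over Hoxd1, Hoxb7 over Hoxb9, Hoxc8 over Hoxa5 and Hoxc9 over Hoxa3. Among the others, the runs from Hoxd1 down to Hoxb7 and from Hoxb9 down to Hoxc8 have no step beyond the spread. Over the 6 libraries the coefficient of variation of CPM had a median of 17.2% for tested Hox genes and 13.2% for the 9 most abundant ones. Of the summed level HoxA held 32.2% ± 1.54 in I/R and 32.1% ± 0.284 in sham, and HoxB held 31.4% ± 1.86 in I/R and 33.2% ± 0.924 in sham (SD, n = 3 each). HoxC held 11.9% ± 1.11 in I/R and 12.7% ± 1.15 in sham, and HoxD held 24.4% ± 1.29 in I/R and 21.9% ± 0.567 in sham. The HoxD shares were higher in every I/R library than in any sham library, and the shares of the other clusters overlapped. The summed HoxD level overlapped, at 23.5 to 31.4 CPM per kilobase in I/R and 25.0 to 26.9 in sham. Of the 7 tested HoxD genes, 3 had a log2 fold change above 0 and 4 below.

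The balance along the axis overlapped between the groups. The level-weighted mean paralog number of a library, a summary of where along the series its Hox transcripts lie, was 6.30, 6.15 and 6.40 in I/R 1 to 3, against 6.42, 6.24 and 6.39 in sham 1 to 3. The summed Hox level was 121, 110 and 99.9 CPM per kilobase in I/R 1 to 3, against 126, 114 and 119 in sham 1 to 3, with I/R 3 lowest. By share of that sum, group 1 held 9.99% ± 0.0635 in I/R and 7.87% ± 0.621 in sham, and group 3 held 6.93% ± 0.202 in I/R and 7.92% ± 0.212 in sham (SD, n = 3 each). Group 6 held 8.05% ± 0.843 in I/R and 9.42% ± 0.116 in sham. In these 3 of the 13 groups the I/R shares lay to one side of all sham shares. How often shares separate in this way without an effect was not tested. For single genes, 17.1% of all tested genes had groups that did not overlap in CPM. By summed level instead of share, group 1 overlapped between I/R and sham. Groups 3, 5, 6 and 10 were lower by level in every I/R library than in any sham library. Because shares add to 100%, a change in 1 group moves the others. The plot of shares sets the 13 groups side by side.

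**Figure D2:**
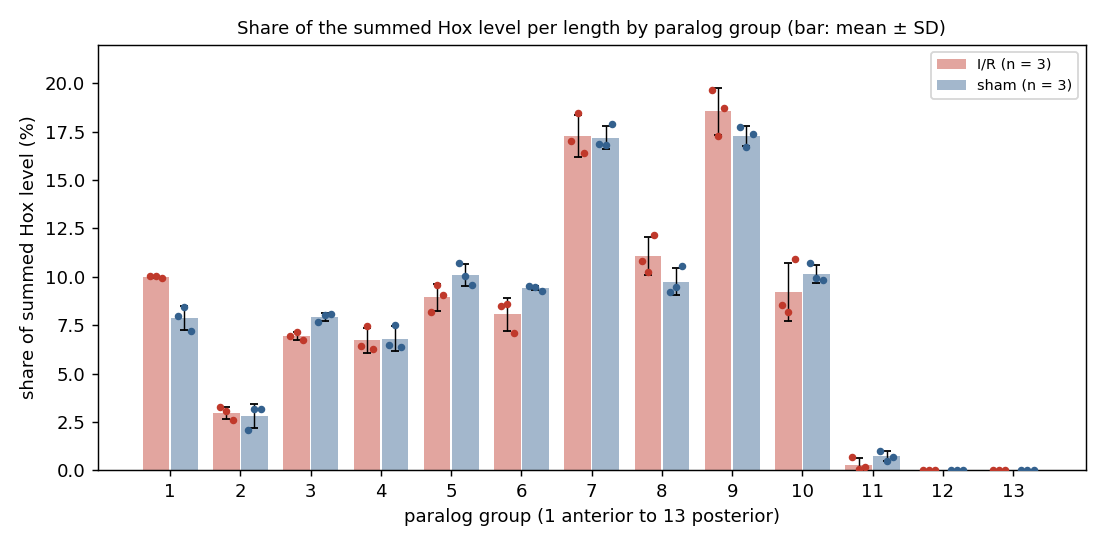
Share of the summed Hox level per length (y axis, percent) held by each paralog group (x axis) in I/R and sham libraries (bars: mean, whiskers: SD, points: 3 libraries a group). Groups 7 and 9 hold the most, at 17.2% to 18.5%, and group 11 under 1% on average.

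No Hox gene was called in the comparison of I/R with sham. Of 39 members, 29 passed the filter on low counts, and 0 were called at an adjusted p under 0.05 with edgeR's quasi-likelihood test, with DESeq2 or with limma-voom. Over all 16346 tested genes 1.15% were called, 0.722% higher and 0.428% lower in I/R. At an unadjusted p under 0.05 there were 5 Hox genes in edgeR, 5 in DESeq2 and 7 in limma-voom. The share of all tested genes at that p was computed for edgeR only, so the DESeq2 and limma-voom counts have no background beside them. The 5 in edgeR were 17.2% of the tested members, against 10.5% of all tested genes, and all 5 were lower in I/R, where 5.7% of all tested genes were higher and 4.8% lower. With 1 library left out the edgeR count ran from 2, without sham 1, to 6, without I/R 1. In 7 tested members (24.1%) every I/R value lay below every sham value, and in 0 every one lay above, where all tested genes gave 7.83% and 9.22%. The log2 fold change was below 0 for 21 of the 29 tested members, with a median of -0.13, and for 49.98% of all tested genes, with a median of 0.00013. The median of the members varied by 0.090 (SD) between libraries of a group.

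The 7 members were Hoxc5, Hoxc10, Hoxd3, Hoxb5, Hoxb6, Hoxb3 and Hoxd10, spread over 3 clusters. Hoxc5 had the smallest p, with 0.288 ± 0.0347 CPM per kilobase in I/R and 0.590 ± 0.0836 in sham (SD, n = 3 each), a log2 fold change of -1.03 ± 0.26 (SE) and adjusted p = 0.13 in edgeR. It rested on 15 to 20 counts a library in I/R and 31 to 39 in sham. Hoxc10 had a log2 fold change of -0.48 ± 0.17 (SE) (adjusted p = 0.31) and Hoxd3 one of -0.45 ± 0.17 (SE) (adjusted p = 0.37). Hoxb5, Hoxb6 and Hoxb3, all of HoxB, had -0.34, -0.42 and -0.29. None of these passed. For the 28 reported Hox genes tested in the main fit, the adjusted p was no lower than 0.095 in any fit of single genes. Hox genes that were tested only under other settings are not in this minimum, and 0 of them were called. Against sham 2 alone, the sham library with little muscle RNA, the values were -0.90 for Hoxc5, -0.40 for Hoxc10, -0.53 for Hoxd3, -0.29 for Hoxb5, -0.27 for Hoxb6 and -0.15 for Hoxb3. Sham 2 also had the highest fibroblast and meningeal sum of all libraries, at 834 CPM. Without I/R 3, the lowest library for both, Hoxb6 stood at -0.24 and Hoxb3 at -0.18. Of the marker sums given above, those of fibroblast and meningeal cells, Schwann cells, skeletal muscle and adipose tissue lay lower in every I/R library than in any sham library. So did the sympathetic sum, which is nearly all Th, while that of macrophages lay higher. The part of these cells in the Hox values was not tested.

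The intervals bound the size of a change. For the 5 most abundant members the 95% interval of the log2 fold change was -0.35 to 0.13 for Hoxa7, -0.03 to 0.53 for Hoxd1, -0.38 to 0.10 for Hoxa9, -0.66 to -0.03 for Hoxb5 and -0.38 to 0.13 for Hoxa10. That of Hoxb5 did not include 0. For 25 of the 29 tested members the interval lay within a 2-fold change either way, and for 24 it included 0. It reached beyond 2-fold for genes that included Hoxc5, Hoxd10 and Hoxd11, each under 1 CPM per kilobase. The plot of log2 fold changes gives 28 of the 29.

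**Figure D3:**
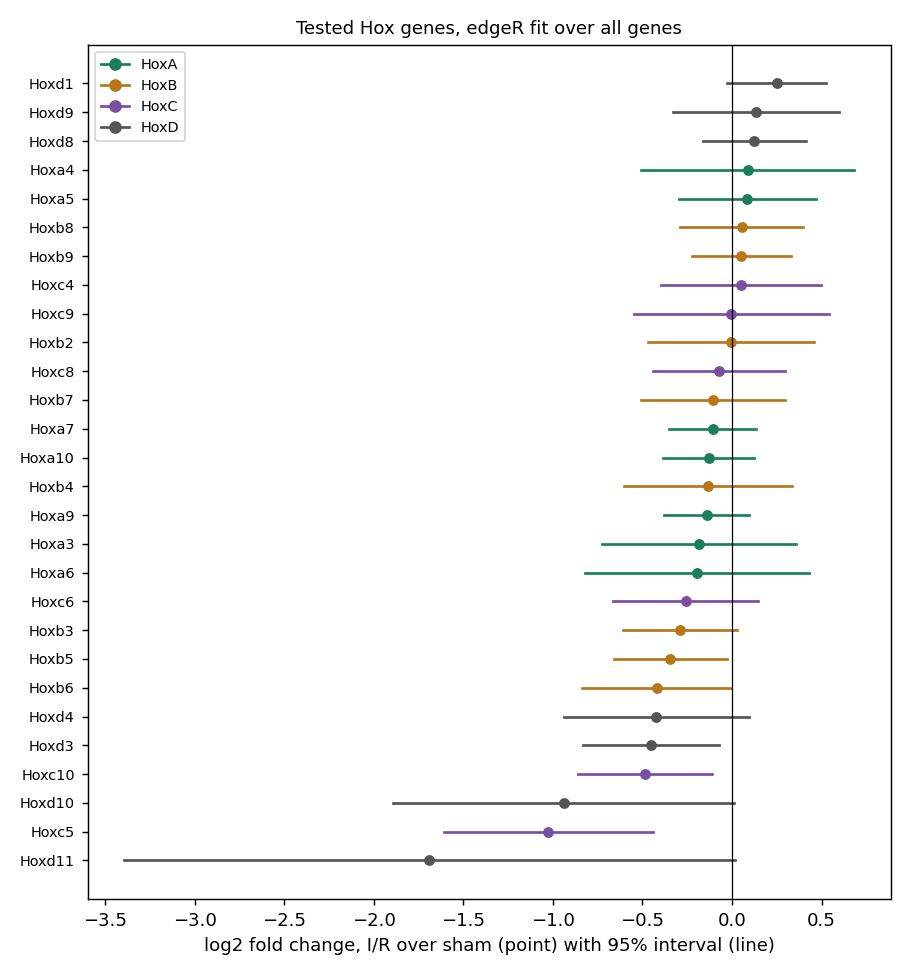
Log2 fold change of I/R over sham (x axis, points) with its 95% interval (lines) for 28 of the 29 tested Hox genes, ordered by value and coloured by cluster. The intervals of Hoxd11, Hoxc5 and Hoxd10 reach beyond 2-fold, and that of Hoxc5 lies furthest from 0.

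The posterior end of the code was thin and uneven between libraries. From Hoxa10 to Hoxa11, a gene of kidney, limb and sacral development, the mean level dropped 134-fold, and from Hoxc10 to Hoxc11 21.9-fold. In HoxD the drop lay a group earlier, with a mean level over the 6 libraries of 5.98 CPM per kilobase for Hoxd9, 0.461 for Hoxd10 and 0.402 for Hoxd11. Hoxd10, which acts in lumbar and hindlimb motor neurons, had 16, 4 and 16 counts in I/R 1 to 3, against 22, 20 and 24 in sham 1 to 3. Hoxd11 had 11.3, 0 and 2.23 expected counts in I/R 1 to 3, against 20.4, 9.89 and 10.5 in sham 1 to 3. I/R 2 was the lowest library for both. Hoxc11 had 12, 0 and 4 counts in I/R 1 to 3, against 11, 2 and 9 in sham 1 to 3. Hoxa11 had 1, 2 and 0 counts in I/R 1 to 3, against 6, 2 and 4 in sham 1 to 3. Hoxd11 and Hoxc11 overlapped between the groups, the highest I/R count of Hoxa11 equalled its lowest sham count, and of these 3 genes Hoxd11 alone passed the filter.

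The log2 fold change was -0.94 ± 0.43 (SE) for Hoxd10 (adjusted p = 0.48) and -1.69 ± 0.76 (SE) for Hoxd11 (adjusted p = 0.48) in edgeR. Without I/R 2 they were -0.55 and -1.13, and without I/R 1 the value for Hoxd11 was -3.70. The 4 genes summed to 1.97, 0.290 and 1.00 CPM in I/R 1 to 3, against 2.89, 1.70 and 2.47 CPM in sham 1 to 3. Sham 1 and sham 3 hold the most of these transcripts and also the most skeletal muscle RNA. Their summed levels of 11 spinal cord markers, astrocyte genes among them, were also the highest, at 60.9 and 42.5 CPM. This sum was 18.5 to 23.7 CPM in the I/R libraries and 17.3 CPM in sham 2. Chat, Olig2 and Opalin, of motor neurons and oligodendrocytes, were at 0 in all I/R libraries and in sham 2, and at 0.205 to 0.392 CPM in sham 1 and sham 3. They were picked with their values known. Of the 11 markers 5 were tested and 0 were called, with a log2 fold change below 0 for 3 and above 0 for 2. The 3 below 0 had an unadjusted p under 0.05 in edgeR, and the median of the 5 was -0.69. For all 5 the groups overlapped. The part of muscle, spinal cord or the levels dissected in the posterior Hox values was not tested. With sham 2 alone as the comparison, Hoxd10 and Hoxd11 were at -0.82 and -1.26. The plot of posterior counts shows the libraries one by one.

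**Figure D4:**
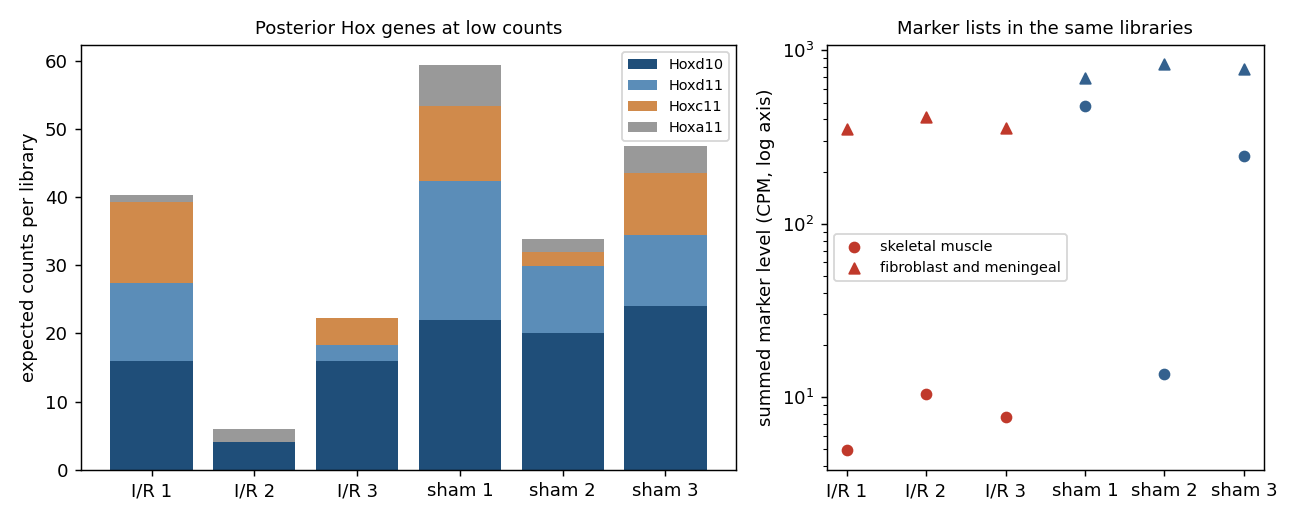
Left, expected counts of Hoxd10, Hoxd11, Hoxc11 and Hoxa11 stacked in each library. Right, summed levels in CPM (log axis) of the skeletal muscle markers (circles) and of the fibroblast and meningeal markers (triangles) in the same libraries, I/R in red and sham in blue. I/R 2 has the fewest posterior Hox counts, and sham 1 and sham 3 have the most muscle RNA.

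Hox genes are packed closely and share exons with other transcripts, which touches how reads were assigned. In GENCODE M21, 16 of the 39 genes have exonic bases in common with another gene, 9 on the same strand and 10 on the opposite one. Of the 10 Hox genes with a count that was not whole, 9 are among the 16. The kit keeps strand, but whether the counting used it is not given in the sources used here. Hoxc5 and Hoxc10 have 166 bases in common on the same strand. Summed to 1 locus they had a log2 fold change of -0.57 ± 0.15 (SE, adjusted p = 0.15 in edgeR). Hoxd3, Hoxd4 and the transcripts that overlap them, Hoxd3os1, Haglr and Gm28230, had -0.28 ± 0.12 when summed (adjusted p = 0.46). Hoxb2, Hoxb3 and Hoxb3os had -0.14 ± 0.14 when summed (adjusted p = 0.80). With all overlapping loci merged, 23 of 32 Hox units were tested and 0 were called, and 5 had an unadjusted p under 0.05 in edgeR, all lower. The share of all genes at that p was not computed for the merged fit, so this count has no background beside it.

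The antisense and noncoding RNAs of the clusters were scarce. Of 17 listed, 16 were in the table, 3 passed the filter and 0 were called, and 1 had an unadjusted p under 0.05. Hoxaas2, antisense at Hoxa3, had 2.57, 2.61 and 1.91 CPM in I/R 1 to 3, against 3.97, 3.35 and 3.70 CPM in sham 1 to 3, with no overlap (log2 fold change -0.64 ± 0.20, adjusted p = 0.23 in edgeR). Hoxd3os1 and Hoxb3os stood at 0.45 ± 0.30 and 0.39 ± 0.27, where Hoxd3 and Hoxb3 on the other strand stood at -0.45 and -0.29. Neither Hoxd3os1 nor Hoxb3os had an unadjusted p under 0.05 in edgeR. Hoxaas2 and Hoxa3 had the same sign, at -0.64 and -0.19. The precursors Mir10a, Mir10b and Mir615 were at 0, in a library type that does not capture mature miRNAs.

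Partners of Hox proteins and chromatin regulators of Hox genes were all tested, and none was called. The 9 TALE homeodomain genes, whose Pbx, Meis and Pknox proteins bind DNA together with Hox proteins, were all tested, and 0 were called by edgeR and 0 had an unadjusted p under 0.05 (median log2 fold change 0.04). The log2 fold change was above 0 for 6 of the 9 and below 0 for 3. Pbx2 had 56.6 ± 5.78 CPM in I/R and 63.7 ± 0.474 CPM in sham, Pknox2 89.9 ± 4.99 CPM and 99.5 ± 4.18 CPM, and Meis1 5.33 ± 0.992 CPM and 6.48 ± 0.456 CPM (SD, n = 3 each, I/R before sham). The 21 Polycomb and Trithorax genes, which keep Hox genes silent or active through cell divisions, were all tested, with 0 called by edgeR and 1 at an unadjusted p under 0.05. That gene was Cbx8, a Polycomb reader of histone methylation, with 9.38, 6.72 and 6.29 CPM in I/R 1 to 3, against 10.2, 10.3 and 11.3 CPM in sham 1 to 3 (log2 fold change -0.51 ± 0.17, adjusted p = 0.26 in edgeR). Ring1 and Jarid2, of Polycomb complexes and next by p, stood at -0.34 and -0.21. Over the whole list 12 of 21 genes were above 0, with a median log2 fold change of 0.014.

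Among 14 upstream inputs, retinoic acid genes, Cdx genes and Gdf11, 9 were tested and 1 was called. Aldh1a2, which makes the retinoic acid that switches on anterior Hox genes in embryos, fell to 0.740, 0.242 and 0.729 CPM in I/R 1 to 3, against 1.96, 2.65 and 2.62 CPM in sham 1 to 3 (log2 fold change -2.06 ± 0.36, adjusted p = 0.024 in edgeR). Meningeal cells also make Aldh1a2, 7 of the 8 fibroblast and meningeal markers were called lower in I/R, and their part in this value was not tested. No gene of these lists was called without any 1 library other than I/R 1. Rxrg stood at -0.27 and Rarb at -0.38, with adjusted p of 0.43 and 0.62. Cdx2 and Cdx4, which drive posterior Hox genes in embryos, were at 0, and Cdx1 had its only signal in sham 3, at 0.0514 CPM. Of 12 genes flanking the clusters, 11 were in the table, 8 were tested and 0 were called by edgeR, with 1 at an unadjusted p under 0.05, Ttll6 beside HoxB, at -0.52 ± 0.20 (adjusted p = 0.37). Lnpk and Calcoco1, beside HoxD and HoxC, stood at 0.18 and -0.15, and Evx1 and Evx2, homeobox genes at the posterior ends of HoxA and HoxD, were at 0.

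Silent and active Hox promoters both carry CpG dinucleotides, the feature of promoters that Polycomb complexes occupy. A RefSeq promoter (assembly GRCm38.p6, another build than the GRCm39 named for these files) was at hand for 22 of the 39 genes, with 24 start sites. In the 250 bases before the start site the median was 12.5 CpG, with a range of 2 to 35, against 6 over 32851 promoters, 31.5% of which had at least 12.5. Hoxa7, the most abundant member, and Hoxa13, at 0 in every library, are shown from the same cluster, with CpG in capitals. The Hoxa7 site lies at chr6:52218574-52218823 and holds 7 CpG, and the Hoxa13 site lies at chr6:52260881-52261130 and holds 35, both on the minus strand. The pair does not stand for the rest, since Hoxd1, the second most abundant member, has 24, while Hoxb1 and Hoxd12, at 0 in every library, have 7 and 10.
Hoxa7: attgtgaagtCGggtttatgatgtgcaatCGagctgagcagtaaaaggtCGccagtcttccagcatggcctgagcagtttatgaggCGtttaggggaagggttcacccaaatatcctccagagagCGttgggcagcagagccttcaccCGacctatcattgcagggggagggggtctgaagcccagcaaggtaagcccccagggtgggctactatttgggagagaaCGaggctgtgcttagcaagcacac
Hoxa13: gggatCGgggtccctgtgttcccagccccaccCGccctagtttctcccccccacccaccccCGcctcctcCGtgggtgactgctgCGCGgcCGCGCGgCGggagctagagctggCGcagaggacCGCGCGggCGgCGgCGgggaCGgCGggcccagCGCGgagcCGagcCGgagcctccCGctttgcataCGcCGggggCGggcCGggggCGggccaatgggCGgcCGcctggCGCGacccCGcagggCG
The motif TGATTNAT, bound by Hox and Pbx proteins together and searched on both strands, was found in 2 of the 24 Hox promoters (8.33%), those of Hoxa2 and of 1 start of Hoxd11, and in 2.82% of all promoters.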

How the data were processed

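RNA was extracted from 6 dorsal root ganglion samples with TRIzol and made into stranded mRNA libraries, per the labels' protocols. Per the submitters' processing notes the tools were fastp, StringTie and HISAT2 and the build GRCm39, with no role or version. No source used here gives the counting program. Deposited by the authors were expected counts per gene and library, not scaled to library size, of which 10.7% to 11.5% in a library were not whole. Totals were 19092650 to 22010227, and 525 entries had no gene name and were kept under their IDs. Counts were rounded for edgeR 4.0.16 (R 4.3.3), using its quasi-likelihood test, TMM scaling and filterByExpr, which kept 16346 genes. Benjamini-Hochberg adjustment ran over all of these, and calls needed an adjusted p under 0.05. Fold changes are I/R over sham, and SE and 95% intervals come from the F statistic. The design had assumed a count table, and the test was kept for rounded expected counts. Levels divide TMM-scaled CPM by the deposited length.

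The common biological coefficient of variation was 13.2%. On counts simulated for this comparison over 16165 genes, recovery was 45.8% at a 1.5-fold change, 93.1% at 2-fold and 100% at 4-fold, and 8 of 159 calls were false. Changed genes had a mean of at least 1 CPM, and every simulated gene varied by the common 13.2%. For genes that vary more between mice, recovery would be lower than these rates. Replicates are separate mice, and library pairs of a group gave chi-square over degrees of freedom of 4.05 to 27.9, beyond sampling noise, and the labels give no batch. Other settings tried were 2 normalizations (upper-quartile, RLE), 2 tools (limma-voom with limma 3.58.1, DESeq2 1.42.0), 2 filters (none, CPM 1 or more in 3 libraries), a block for replicate number, and each library left out in turn. Sham 2 alone against I/R and the merging of overlapping loci were added after seeing the data. The members, lists and tests were chosen with earlier results of these data known. 1 Hox gene and 1 marker gene are counted in the summaries but not reported here. The rule for named genes gave all Hox genes, values in each library where the mean reached 1 CPM per kilobase, the unadjusted p was under 0.05 or the level was the lowest detected of a cluster, and up to 3 genes of smallest p from each other list. Values by library for Hoxd10 and for Cdx, Evx, miRNA and marker genes are not covered by it, and these genes were picked with their values known.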

Additional observations from a re-analysis of the deposited data

How the results depend on the processing

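No Hox gene was called with RLE or upper-quartile normalization, DESeq2, limma-voom, no filter, the stricter filter, the replicate block, any library left out, or merged loci. With sham 2 alone 0 were called too, but that fit has 1 sham library, takes its spread from the I/R libraries and has little power to call. Over all genes 188 were called, against 312 in DESeq2, 494 without the filter, 63 with the replicate block, 87 to 181 with a library left out and 32 with sham 2 alone. The median Hox log2 fold change ran from -0.19 to -0.08. Hox genes at an unadjusted p under 0.05 in edgeR numbered 5 with all libraries. There were 2 without sham 1, 3 without I/R 2, 3 without I/R 3 and 6 without I/R 1. The share of all genes at that p was not computed in these smaller fits. The cause of these shifts was not tested. Of the other lists 1 gene was called, and 0 with the replicate block, 0 to 1 with a library left out and 0 with sham 2 alone. Shares of the paralog groups moved by less than their SD over all libraries. Leaving 1 library out cannot move their mean by a full SD, and rescaling a library leaves its shares nearly unchanged. These settings could therefore not show a shift of that size.

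Of 390 values of single Hox genes under alternatives, 371 kept sign and call and 19 changed sign, in 9 genes near 0. With a library left out the range was -0.13 to 0.22 for Hoxa4, -0.15 to 0.024 for Hoxc8, -0.24 to 0.20 for Hoxc9, -0.28 to 0.065 for Hoxb4, -0.22 to 0.057 for Hoxb7, -0.12 to 0.33 for Hoxd9, -0.12 to 0.13 for Hoxb8, -0.14 to 0.17 for Hoxc4 and -0.17 to 0.16 for Hoxb2. With sham 2 alone the values were -0.17 for Hoxa4, 0.14 for Hoxc9, 0.036 for Hoxb7 and -0.16 for Hoxc4. The deviations of same-numbered libraries correlated at -0.11, 0.14 and -0.12 over genes, and those of differently numbered ones at -0.20 to 0.28. With so few libraries this cannot tell whether same-numbered mice were handled together. The block for replicate number changed no Hox call. At this depth genes of groups 11 to 13, with 0 to 20.4 counts a library, are too few to bound a change.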
